A study of Homo sapiens with 15 samples.

Results

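HepG2 cells carrying a short hairpin RNA (shRNA) against BRM were compared with HepG2 cells carrying a non-silencing control shRNA (NS), across all genes of the deposited count table. HepG2 is an established human liver cancer line with many hepatocyte features. The comparison takes 7 of the 15 libraries of the series, namely the libraries numbered 1 to 3 of the BRM group and those numbered 1 to 4 of the NS group. Every group, the control included, was infected with lentivirus in the presence of polybrene, selected with puromycin and collected 5 days after infection. An mRNA sequencing kit was used. The remaining groups, 4 libraries with an shRNA against BRG1 and 4 with both shRNAs, entered the same model and serve below only where BRM depletion was tested against or on top of BRG1 depletion. The study has 1 cell line, and the labels give neither the number of hairpins per target nor separate cultures, so the spread behind each p-value is that of these libraries and may be technical. In RNA from whole cultures, fewer cells of a type and less RNA per cell cannot be told apart.

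BRM, encoded by SMARCA2, and BRG1, encoded by SMARCA4, are the alternative ATPase motors of SWI/SNF (BAF) complexes, which spend ATP to slide or evict nucleosomes at enhancers and promoters. A given complex carries one or the other, so both proteins share most partner subunits. BRM is generally more abundant in differentiated, slowly dividing cells and BRG1 in proliferating cells. In the liver, SWI/SNF complexes act together with hepatocyte transcription factors at genes for plasma proteins and for intermediary and drug metabolism.

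Total estimated counts ran from 11500149 to 22467399 in the NS libraries and from 12550787 to 26998203 in the BRM libraries. The replicate numbers fell into a lower and an upper pair, for a reason the labels do not give: mitochondrially encoded genes took 8.26 and 8.15% of counts in NS libraries 1 and 2 against 1.5 and 1.33% in NS libraries 3 and 4, and 8.05, 4.97 and 3.07% in BRM libraries 1, 2 and 3. Effects were therefore also computed within libraries 1 and 2 (the lower range) and within libraries 3 and 4 (the upper range), which has a single BRM library, assumed to vary like the other groups. Over the tested genes, chi-square per degree of freedom was 5.26 between NS libraries 1 and 2 and 13.4 between 3 and 4. It was 128 to 207 between NS libraries of different ranges. It was 61.7 between BRM libraries 1 and 2, and 189 and 140 from these to BRM library 3. Tests within a range take their spread within each group and range, so their p-values do not measure the spread between ranges. Summed hepatocyte markers held 27349 to 37900 counts per library scaled to a common total (CPM) in NS and 44304 to 50540 in BRM libraries, and all 10 had counts. In the pooled test given below, 1 of the 10 was higher in BRM (FGB), 1 was lower (TTR) and 8 did not pass. The count higher was 4 with only the 7 libraries in the model and 6 with a term for replicate range. The count lower was 1 in both. Of the markers of other cell types, LUM, KDR, CD3E, NEFL, NEFM and STMN2 had 0 counts in all 7 libraries, and the remaining members had some counts. The cholangiocyte list summed to 1655 to 2885 CPM in NS and 1189 to 1309 CPM in BRM libraries. SPP1 and KRT19, whose values are given below, held much of its sum in NS. Its members moved in both directions: of 7 tested in the pooled test, 1 was higher and 2 lower (42.9% called against 13.9% of all genes). The count higher was 0 and the count lower 1 without NS library 3 or 4 or BRM library 1 or 2. The neural list summed to 302 to 423 and 190 to 469 CPM, the stellate and fibroblast list to 63 to 133 and 127 to 178 CPM. Of 5 stellate and fibroblast genes tested 1 was called in the pooled test, ACTA2, which was higher (20% called against 13.9% of all genes). The endothelial list summed to 8.77 to 11.7 and 6.06 to 9.7 CPM. The blood and macrophage list summed to 511 to 1628 CPM in NS and 139 to 205 CPM in BRM libraries, and most of it was LYZ, the lysozyme gene.

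SMARCA2 mRNA was depleted in every BRM library. On TMM-scaled totals, used for all CPM values from here on, the NS libraries 1 to 4 held 41.2, 33.2, 41.1 and 41.4 CPM and the BRM libraries 1 to 3 held 6.85, 2.55 and 3.73 CPM, so the groups did not overlap. The log2 fold change was -3.18 ± 0.28 (SE; adjusted p = 3.44e-05), with -3.04 in libraries 1 and 2 and -3.46 in libraries 3 and 4. SMARCA4 stood at 312, 297, 310.3 and 310.1 CPM in NS and 281, 312 and 444 CPM in BRM libraries. BRM libraries 1 and 2 lay near the NS values and BRM library 3 above them, and the difference of 0.17 ± 0.17 (SE; adjusted p = 0.58) did not pass the test. Without BRM library 3 the SMARCA4 difference was -0.0868. Among the 27 SWI/SNF subunit genes tested, SMARCA2 and ARID1B (-0.70 ± 0.16 SE; adjusted p = 0.0099), the large subunit of canonical BAF, were lower and BCL7C (0.79 ± 0.23 SE; adjusted p = 0.032), a small accessory subunit, was higher, 11.1% against the 13.9% of all genes called below. The ARID1B and BCL7C calls were lost without BRM library 2 (adjusted p = 0.0504 and 0.12) and with only the NS and BRM libraries in the model (0.059 and 0.092), and that of BCL7C also without NS library 1, 3 or 4 or BRM library 3 (adjusted p = 0.067 to 0.18) or a low-count filter (0.069). Without BRM library 3 the list had 4 lower genes.

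**Figure D1:**
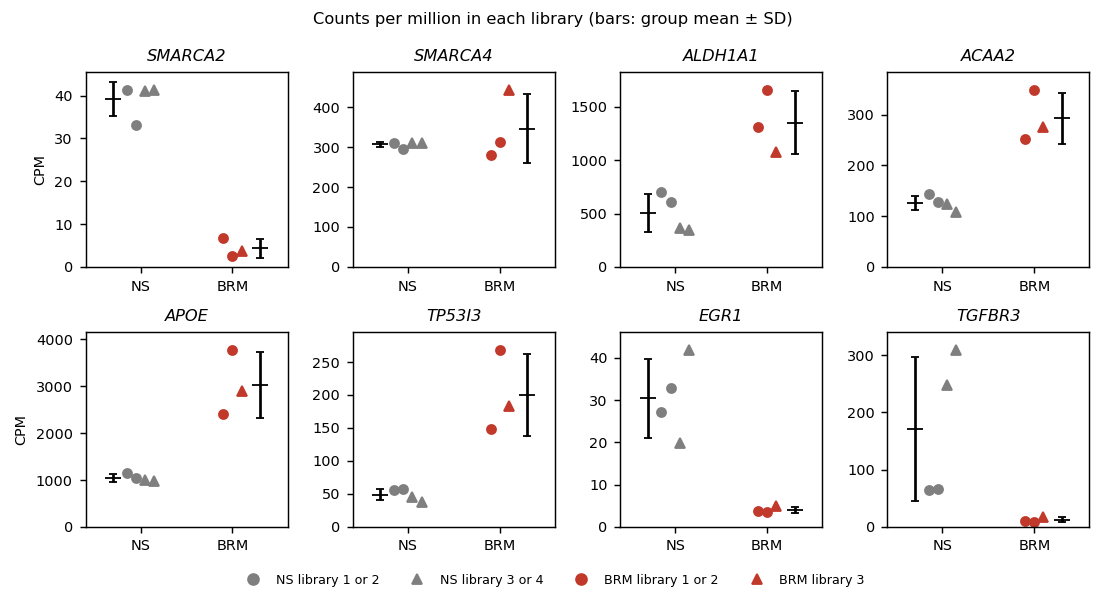
CPM (y axis, from 0) of 8 genes in the 4 NS and 3 BRM libraries; circles are libraries numbered 1 and 2, triangles those numbered 3 and 4, and bars the group mean ± SD. The BRM libraries hold 2.55 to 6.85 CPM of SMARCA2 against 33.2 to 41.4 in NS, while SMARCA4 overlaps between the groups; the other panels show 4 genes that were higher in every BRM library and 2, EGR1 and TGFBR3, that were lower.

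Of 14621 genes tested, 2035 (13.9%) differed between BRM and NS at an adjusted p under 0.05, from edgeR's quasi-likelihood test with Benjamini-Hochberg adjustment over all genes tested. They divide into 1120 higher (7.66%) and 915 lower (6.26%) in BRM, of which 642 and 544 changed at least 2-fold and 173 and 142 at least 4-fold. Every BRM library lay above every NS library for 1826 genes (12.5%) and below for 1576 (10.8%). The count depended on the libraries and terms in the model: it was 959 without BRM library 2 and 1002 with only the 7 libraries in the model, of which 942 and 970 were among the 2035, and it was 4684 with a term for the range of replicate numbers, which included all 2035. No called gene changed direction in any of these fits.

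Within libraries 1 and 2 alone 4336 genes (29.7%) were called, 2303 higher (15.8%) and 2033 lower (13.9%), and within libraries 3 and 4 3349 (22.9%), 2145 higher (14.7%) and 1204 lower (8.23%). Called in both ranges with the same sign were 1785 genes, and 34 were called with opposite signs. Of the 2035 pooled calls 2034 had the same sign in both ranges and 1314 were called in both; the exception, chosen after its values were seen, was EFEMP2, an elastic fibre protein, at -1.88 and 0.15. Its pooled call was lost without NS library 1 or 2 or BRM library 1 or 2, by voom, without a low-count filter and with only the 7 libraries in the model (adjusted p = 0.051 to 0.18). The pooled effect is built from the same libraries as the 2 range effects. Agreement in sign among pooled calls is therefore largely set by their selection and is no replication. Across the 14621 genes the 2 effects correlated with Pearson's r of 0.40 and Spearman's coefficient of 0.49; these are genes of the same libraries, not independent replicates. The effects themselves differed between ranges for 330 genes (2.26%), 259 more positive in libraries 3 and 4 (1.77%) and 71 more negative (0.486%), and 56 of the 330 were among the pooled calls. Without a filter on low counts 1055 genes differed.

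The genes that differed include several of extracellular matrix and epithelium. COMP, a cartilage matrix protein, held 32.2, 17.2, 1.01 and 1.81 CPM in NS and 0.725, 0.30 and 1.34 CPM in BRM libraries, so that the groups were apart in libraries 1 and 2 (-5.70) and not in 3 and 4 (-0.16; adjusted p of the difference = 0.0102). COL1A1, a type I collagen chain, held 63.7, 51.5, 17.2 and 13.1 CPM in NS and 11.5, 14.3 and 18.6 CPM in BRM libraries (-2.15 and 0.31; adjusted p = 0.0102), and its groups overlapped. The gelatinase gene MMP2 and the complement inhibitor gene SERPING1 fell by 2.59 and 2.81 in libraries 1 and 2 and differed by -0.63 and -0.48 in libraries 3 and 4. KRT19, a cholangiocyte keratin, held 1213, 1131, 699.9 and 692 CPM in NS and 298, 544 and 814 CPM in BRM libraries (-1.48 and 0.23; adjusted p of the difference = 0.0297). FADS6, a fatty acid desaturase family member, held 5.92, 5.21, 0.277 and 0.232 CPM in NS and 5.64, 12.1 and 9.64 CPM in BRM libraries: the BRM libraries were within about 2-fold of each other and the NS libraries fell into a high pair and a low pair. The pooled call of COMP was lost without NS library 1 or 2 or any single BRM library (adjusted p = 0.076 to 0.18), by voom (0.34), without a low-count filter (0.11) and with only the 7 libraries in the model (0.094), and that of SERPING1 with only the 7 libraries in the model (adjusted p = 0.054).

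**Figure D2:**
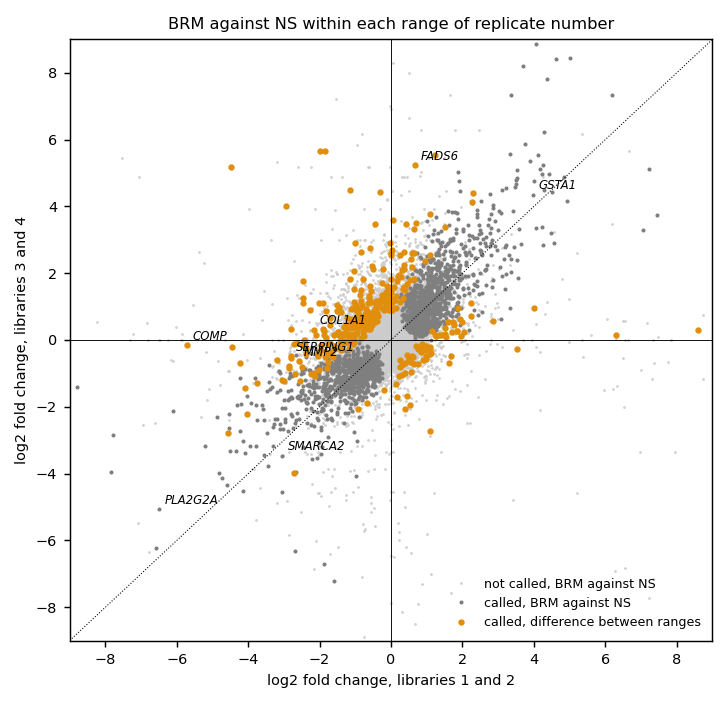
log2 fold change of BRM against NS in libraries 3 and 4 (y axis) against libraries 1 and 2 (x axis) for each tested gene; dark grey points were called in the pooled test and orange points differ between the ranges. The dotted line marks equal effects and 11 genes lie outside the axes; SMARCA2 lies near the line (-3.04 and -3.46), COMP (-5.70 and -0.16) and FADS6 (0.68 and 5.24) away from it.

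The 14 largest decreases among called genes with at least 2 CPM on average included secreted proteins, chemokines and receptors. PLA2G2A, a secreted phospholipase A2 on chromosome 1 (19975431 to 19980416), held 45.8, 38.3, 15.5 and 18.9 CPM in the NS and 0.322, 0.55 and 0.507 CPM in the BRM libraries. The BRM libraries were all lower than the lowest NS library, and the log2 fold change was -5.95 ± 0.49 (SE; adjusted p = 2.22e-05). SPP1, which encodes osteopontin, an integrin- and CD44-binding phosphoprotein, held 792, 682, 537 and 612 CPM in NS and 26.7, 35.8 and 82.6 CPM in BRM libraries. Its log2 fold change was -3.76 ± 0.51 (SE; adjusted p = 3.54e-04), larger in libraries 1 and 2 (-4.56) than in 3 and 4 (-2.80; adjusted p of the difference = 0.043). TGFBR3, the betaglycan co-receptor of TGF-beta, held 64.1, 65.7, 247 and 309.7 CPM in NS and 11, 8.8 and 17.5 CPM in BRM libraries. NS libraries 3 and 4 were several times higher than NS libraries 1 and 2, the BRM libraries were below all of them, and the log2 fold change was -2.72 and -3.99 in the lower and upper range (adjusted p of the difference = 0.027).

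The chemokine genes CCL20 and CXCL8 fell by 3.82 ± 0.83 and 3.32 ± 0.58 on the log2 scale (SE; adjusted p = 0.0074 and 0.0017). C7, a complement component of the membrane attack complex, fell by 3.81 and PRF1, which encodes the pore protein perforin, by 3.86. KCNJ10, an inwardly rectifying potassium channel, went from 31.1, 24, 67.2 and 68.7 CPM to 1.21, 0.90 and 3.87 CPM, with a log2 fold change of -4.54. Others among the largest decreases were ADAMTS14 (-4.13), a procollagen-processing protease, ANGPTL1 (-3.76), an angiopoietin-like secreted protein, ARSI (-3.62), a sulfatase, ODAM (-3.50), the odontogenic ameloblast-associated protein gene, and HOXD1 (-3.33), a homeobox gene. Adjusted p-values of the decreases named ran from 2.22e-05 for PLA2G2A to 0.0297 for HOXD1. Without BRM library 2 the calls of CCL20, ARSI, ADAMTS14 and HOXD1 were lost (adjusted p = 0.0504, 0.054, 0.059 and 0.14), and that of HOXD1 also without any of BRM libraries 1 and 3 and NS libraries 3 and 4 (adjusted p = 0.053 to 0.077) or a low-count filter (0.067). By voom ADAMTS14 did not pass (adjusted p = 0.14).

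**Figure D3:**
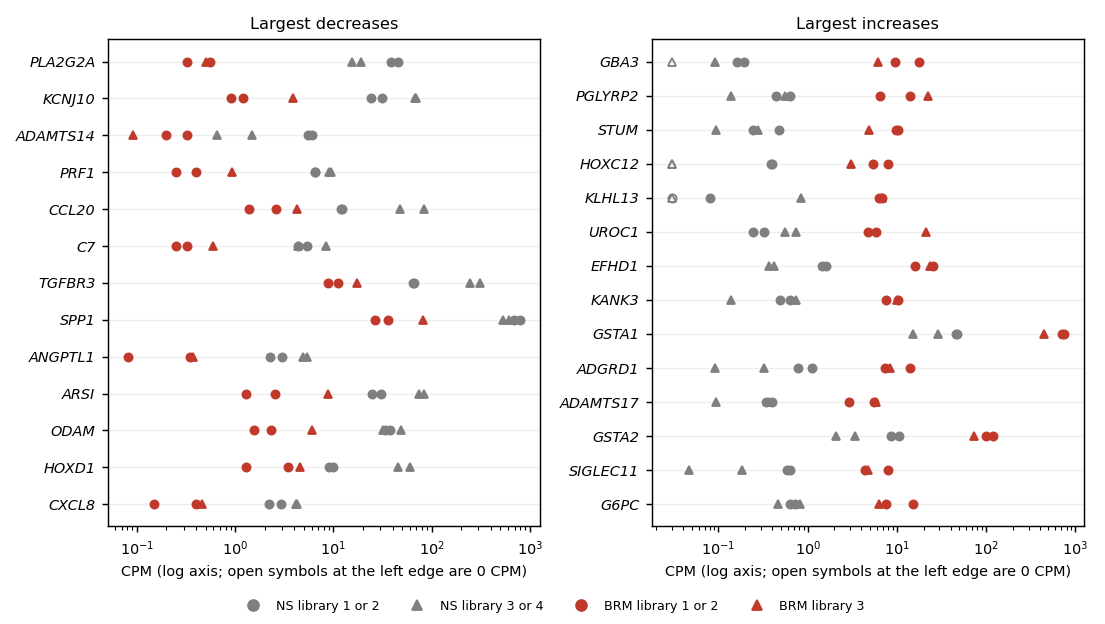
CPM on a log axis for the genes described among the largest decreases and the largest increases, 1 symbol per library (grey NS, red BRM; circles libraries 1 and 2, triangles 3 and 4; open symbols at the left edge are 0 CPM). The rule requires groups that do not overlap, so their separation is no finding; the symbols show levels from 0 to 792 CPM and the spread between the ranges of replicate numbers, with NS triangles above NS circles for CCL20, TGFBR3 and HOXD1.

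The 14 largest increases included enzymes of detoxification, glucose release and histidine breakdown. GSTA1, an alpha-class glutathione S-transferase that conjugates xenobiotics and lipid peroxides and is abundant in normal liver, held 46.3, 46.8, 29.1 and 15.3 CPM in NS and 705, 749 and 446 CPM in BRM libraries. The lowest BRM library was far above the highest NS library, and the log2 fold change was 4.20 ± 0.45 (SE; adjusted p = 7.56e-05), with 3.97 and 4.35 in the 2 ranges. GSTA2, its neighbour on chromosome 6, rose from 10.5, 8.57, 3.41 and 2.09 CPM to 99, 120.3 and 73.4 CPM, a log2 fold change of 3.98 ± 0.45 (SE; adjusted p = 1.06e-04). The 2 are close paralogs, so the division of reads between them is uncertain. To show how alike the pair also is upstream, the windows from 250 bases before to 50 bases after their RefSeq starts (GRCh38.p14, minus strand) are printed 5′ to 3′ with motif matches in capitals. GSTA1, chr6:52803767-52804066, and GSTA2, chr6:52763426-52763725, match at 288 of 300 positions (96.0%, without gaps), and in both the capitals mark a C/EBP match at -250, a TCF/LEF match on the opposite strand at -209 and a TATA match at -30 from the start.
GSTA1: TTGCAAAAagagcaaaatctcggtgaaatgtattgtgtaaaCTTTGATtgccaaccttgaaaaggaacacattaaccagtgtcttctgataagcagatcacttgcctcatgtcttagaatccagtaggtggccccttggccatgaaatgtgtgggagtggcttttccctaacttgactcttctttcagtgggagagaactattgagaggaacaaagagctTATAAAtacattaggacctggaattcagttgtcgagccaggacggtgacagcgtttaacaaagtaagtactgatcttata
GSTA2: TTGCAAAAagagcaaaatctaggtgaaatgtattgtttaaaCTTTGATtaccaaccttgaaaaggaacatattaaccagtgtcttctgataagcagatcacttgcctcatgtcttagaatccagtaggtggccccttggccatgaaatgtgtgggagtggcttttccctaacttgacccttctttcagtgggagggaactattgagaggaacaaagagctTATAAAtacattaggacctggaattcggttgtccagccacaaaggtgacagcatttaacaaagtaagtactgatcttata

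Motifs searched on both strands included CAAAGTCCA for HNF4, TTGCNNAA for C/EBP, TGANTCA for AP-1, ATCAAAG for TCF/LEF, TGACGTCA for CRE, and TATAAA for the TATA box; of these the HNF4, AP-1 and CRE letters are not in the 2 windows. C/EBP, TCF/LEF and TATA letters occur in 10.5, 2.62 and 11.5% of all 35116 windows of the table. Windows were found for 10517 of the tested genes. The AP-1 letters were in 5.29% of the 850 windows of genes higher in BRM, 7.08% of the 706 of genes lower and 4.65% of all tested genes with a window, and the CRE letters in 4.0, 2.12 and 3.16%. The C/EBP letters were in 7.18, 6.23 and 7.15%, the TATA letters in 6.71, 7.22 and 5.82% and the TCF/LEF letters in 2.0, 1.70 and 1.54%. The HNF4 letters were in 0.706, 0.567 and 0.352%. These are matches to letters, given as a description.

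UROC1, urocanate hydratase of histidine breakdown, rose from 0.243, 0.32, 0.553 and 0.744 CPM to 4.75, 5.8 and 21 CPM, and G6PC, the catalytic subunit of glucose-6-phosphatase that releases free glucose, from 0.728, 0.641, 0.83 and 0.465 CPM to 7.58, 15.3 and 6.27 CPM. Their log2 fold changes were 4.48 ± 0.66 (SE; adjusted p = 6.25e-04) and 3.87 ± 0.62 (SE; adjusted p = 0.00102). PGLYRP2, a peptidoglycan-hydrolysing amidase secreted by the liver, rose by 5.07, and GBA3, a cytosolic beta-glucosidase gene that GENCODE annotates as a polymorphic pseudogene, by 6.60 from NS levels of 0.194, 0.16, 0.0922 and 0 CPM. The others were STUM (4.97), a membrane protein gene, the homeobox gene HOXC12 (4.73), KLHL13 (4.64), a substrate adaptor of a CUL3 ubiquitin ligase, EFHD1 (4.47), a mitochondrial calcium-binding protein, KANK3 (4.28), the adhesion receptor ADGRD1 (4.08), the protease gene ADAMTS17 (4.02) and the sialic acid receptor gene SIGLEC11 (3.96). Most of these were near 0 CPM in NS, and HOXC12 and KLHL13 each had 2 NS libraries at 0 CPM, so their fitted folds depend on the prior count. The KLHL13 call was lost without BRM library 2 (adjusted p = 0.059). Strand is not stated for the counting, and SMARCA2, HOXD1, ADGRD1, ADAMTS17, EFHD1 and GBA3 overlap antisense or opposite-strand genes, KCNJ10 overlaps PIGM, ANGPTL1 lies within RALGPS2 and KANK3 overlaps RPS28.

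Most genes of alcohol, aldehyde and fatty acid oxidation that were tested were higher. Of 17 alcohol and aldehyde dehydrogenase genes tested, 10 were higher and 1 lower (64.7% called against 13.9% of all genes), with a median log2 fold change of 1.04 against 0.03 over all genes tested. ADH4, a hepatic alcohol dehydrogenase that also oxidises retinol, held 10.8, 9.29, 12.4 and 18.9 CPM in NS and 204, 182 and 114 CPM in BRM libraries, a log2 fold change of 3.69 ± 0.57 (SE; adjusted p = 8.75e-04). ALDH1A1, a retinaldehyde dehydrogenase, held 701, 609.7, 364 and 344 CPM in NS and 1314, 1661 and 1080.3 CPM in BRM libraries, and every BRM library exceeded every NS library (1.42 ± 0.23 SE; adjusted p = 0.0012). ADH5, the formaldehyde-clearing class III enzyme, and ALDH7A1, an aldehyde dehydrogenase of lysine breakdown, rose by 0.87 and 1.04. The list median was 0.91 in libraries 1 and 2 and 1.06 in libraries 3 and 4, and the count higher was 6 without BRM library 2.

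Of 27 fatty acid oxidation and ketogenesis genes tested, 14 were higher and 2 lower (59.3% called), with a median of 0.84. SLC25A20, the carnitine-acylcarnitine carrier of the inner mitochondrial membrane, rose from 26.8, 21.8, 14.4 and 11.4 CPM to 114, 194 and 108 CPM (2.90 ± 0.27 SE; adjusted p = 4.22e-05). CPT1A, which makes acylcarnitines at the outer membrane and limits the rate of the pathway, rose from 39.1, 39.6, 30.3 and 27 CPM to 72.1, 135 and 111 CPM (1.64 ± 0.23 SE; adjusted p = 4.50e-04). ACAA2, the thiolase of the last step, held 126 ± 14.3 CPM in NS (SD, n = 4) and 292 ± 50.5 CPM in BRM libraries (SD, n = 3), a log2 fold change of 1.22, and ECI2, an enoyl-CoA isomerase, rose by 1.18. For all of these the lowest BRM library was above the highest NS library. The list median was 0.84 in libraries 1 and 2 and 0.62 in libraries 3 and 4, and without BRM library 2 the list had 8 higher and 0 lower, and without NS library 1 it had 1 lower.

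Of 32 urea cycle, amino acid and one-carbon genes tested 9 were higher and 0 lower by edgeR (28.1% called; 13 and 1 at an unadjusted p under 0.05, 12 and 1 by DESeq2), with a median of 0.56. BHMT, which remethylates homocysteine with betaine, rose from 3.11, 4.0, 1.2 and 0.929 CPM to 25, 34.7 and 14.6 CPM (3.42 ± 0.45 SE; adjusted p = 2.89e-04), and GNMT, which consumes S-adenosylmethionine, from 2.09, 2.08, 1.48 and 1.07 CPM to 10.2, 9.85 and 10.8 CPM (2.61 ± 0.44 SE; adjusted p = 0.0014). GLS2, the liver-type glutaminase, rose by 1.46. The count higher was 5 without BRM library 2 and 15 with a term for replicate range, 1 gene was lower without NS library 2 or BRM library 1, and the median was 0.57 and 0.56 in the lower and upper range.

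Calls among plasma proteins were mostly increases. Of 29 plasma carrier and transport protein genes tested, 9 were higher and 1 lower (34.5%), with a median of 1.08. FETUB, a secreted protease inhibitor of the fetuin family, held 1.89, 2.64, 1.2 and 2.18 CPM in NS and 11.5, 20.3 and 14 CPM in BRM libraries (2.94 ± 0.34 SE; adjusted p = 1.11e-04). KNG1, the kininogen gene, rose from 10.3, 8.57, 4.43 and 3.21 CPM to 51.4, 79.2 and 38.1 CPM (3.08 ± 0.48 SE; adjusted p = 8.75e-04), and ITIH3, an inter-alpha-trypsin inhibitor heavy chain, by 1.92. TTR, the thyroxine and retinol-binding protein carrier, went the other way, from 129, 126, 118 and 89.6 CPM to 30.4, 48.9 and 38.7 CPM (-1.55 ± 0.22 SE; adjusted p = 5.34e-04). ALB held 6375, 6491, 8579 and 8182 CPM in NS and 17437, 19265 and 13879 CPM in BRM libraries, all above NS, but its difference of 1.19 ± 0.46 (SE; adjusted p = 0.104) did not pass the pooled test. Within libraries 1 and 2 it was called (1.51; adjusted p = 6.53e-04), within 3 and 4 it was not (0.73; adjusted p = 0.0897). The count higher was 3 without BRM library 2 and 5 without NS library 2 or BRM library 3, and 17 with a term for replicate range, and 2 were lower without NS library 1 or 2 or BRM library 3. The list median was 1.09 in the lower and 0.93 in the upper range.

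Of 25 coagulation genes tested, 8 were higher and 4 lower (48.0%), and the 2 directions fell on different members. The fibrinogen chain FGB held 86.6, 80.8, 205 and 158 CPM in NS and 1031, 913 and 963 CPM in BRM libraries (2.87 ± 0.63 SE; adjusted p = 0.0081), and the factors F10 and F5 rose by 1.79 and 0.88 (adjusted p = 7.78e-04 and 0.0019). TFPI, the inhibitor of tissue factor, fell from 117, 129.9, 119 and 144 CPM to 57.5, 35 and 36.7 CPM (-1.57 ± 0.20 SE; adjusted p = 2.09e-04), as did its relative TFPI2 (-2.17 ± 0.47 SE; adjusted p = 0.0071). Of the higher genes, 4 were called without BRM library 2, NS library 1 or NS library 2, and 5 without NS library 3. With only the 7 libraries in the model 1 gene of the list was lower and TFPI2 did not pass (adjusted p = 0.069). The list median of 0.70 was 0.93 in the lower and 0.62 in the upper range. In the complement list 4 genes were higher and 3 lower of 23 (30.4% called against 13.9% of all genes), among the latter MBL2 (-3.09 ± 0.69 SE; adjusted p = 0.0086), the mannose-binding lectin, whose call was lost without BRM library 2 or with only the 7 libraries in the model (adjusted p = 0.055 and 0.059). The count higher in that list was 0 without BRM library 2 and 2 without NS library 1, NS library 2 or BRM library 3, and the count lower was 1 without BRM library 2. With only the 7 libraries in the model 0 were higher by edgeR.

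In lipid transport, APOE, a ligand of lipoprotein receptors, rose from 1159, 1051, 999 and 975 CPM to 2401, 3782 and 2899 CPM (1.53 ± 0.24 SE; adjusted p = 9.83e-04) and PLTP, the phospholipid transfer protein, by 1.76. ANGPTL4, an inhibitor of lipoprotein lipase, rose from 4.76, 3.6, 1.57 and 1.07 CPM to 18, 22.6 and 22.3 CPM (2.92 ± 0.37 SE; adjusted p = 1.97e-04), more in the upper (4.14) than in the lower range (2.26; adjusted p of the difference = 0.0297). CETP, the cholesteryl ester transfer protein, fell by 2.89 from NS levels of 1.6, 1.36, 0.738 and 0.744 CPM. Of 26 such genes tested 5 were higher and 2 lower (26.9%), with a median of 0.71, 0.59 in the lower and 0.86 in the upper range. The count higher was 3 without BRM library 2 or 3 or NS library 1, 2 or 3, and the count lower was 1 without BRM library 1 or 2 or NS library 2 or 3.

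Among 28 fatty acid and triglyceride synthesis genes 7 were higher and 1 lower (28.6%), with range medians of 1.03 and 0.43. LPIN1, a phosphatidate phosphatase, rose by 1.28, ACSL1, an acyl-CoA synthetase, by 1.14, and DGAT2, which makes triglyceride, from 83.7, 82, 82.2 and 61.6 CPM to 147, 229 and 229.6 CPM (1.38 ± 0.25 SE; adjusted p = 0.0023). The count lower was 0 without BRM library 2 or 3 or NS library 3 or 4, and 2 without NS library 2. For cholesterol synthesis the pooled test and the test within libraries 1 and 2 gave different counts. In the pooled test 3 of 26 genes were higher, with a median of 0.98, where 7.66% of all genes were. In libraries 1 and 2, 23 were higher (median 1.6), where 15.8% of all genes were. The list median in libraries 3 and 4 was 0.82. MSMO1, a sterol methyl oxidase, held 82.8, 75.6, 191 and 174 CPM in NS and 362, 386 and 396 CPM in BRM libraries, so that all BRM libraries were alike and NS libraries 3 and 4 were about midway. Its log2 fold change was 1.54 ± 0.39 (SE; adjusted p = 0.018), 2.24 in the lower and 1.12 in the upper range (adjusted p of the difference = 0.022), and the pooled call was lost without NS library 2, BRM library 2 or BRM library 3 (adjusted p = 0.051 to 0.076). INSIG2, which retains the sterol sensor SCAP in the endoplasmic reticulum, fell from 58, 57.7, 57.8 and 63.3 CPM to 31.9, 22.9 and 26.9 CPM (-1.12 ± 0.16 SE; adjusted p = 4.17e-04). In the pooled test 1 cholesterol gene was lower, and 15.4% of the list were called, against 13.9% of all genes. The cholesterol count higher was 1 without any of NS library 2, BRM library 2 or BRM library 3.

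Drug, steroid and bile acid enzymes rose in part. Of 26 cytochrome P450 genes tested 6 were higher and 0 lower by edgeR (7 and 2 at an unadjusted p under 0.05, 6 and 0 by DESeq2), and 5 or 6 were higher without any single library. By edgeR this was 23.1% called, against 13.9% of all genes. The list median was 0.27 in the lower and 1.02 in the upper range. In the lower range 6 were lower and 7 higher, where 13.9 and 15.8% of all genes were. CYP4F3 and CYP4F12, fatty acid omega-hydroxylases, rose from 17.6, 19.1, 5.9 and 4.97 CPM to 99.9, 94.8 and 45 CPM and by 2.31 on the log2 scale. CYP19A1, the aromatase gene that makes estrogens, rose from 9.08, 5.85, 6.0 and 5.02 CPM to 32.1, 62.5 and 38.4 CPM (2.77 ± 0.29 SE; adjusted p = 6.34e-05), and CYP2J2, an arachidonate epoxygenase, by 1.26. CYP7A1, the rate-limiting enzyme of classical bile acid synthesis, did not pass the filter on low counts and was not tested. SLC51A, a subunit of the basolateral bile acid exporter, ACOX2, a peroxisomal oxidase of bile acid side chains, and SCP2, a sterol carrier and thiolase, had log2 fold changes of 2.27, 1.42 and 1.19. They were among 6 higher of 22 bile acid genes tested (27.3% called against 13.9% of all genes). That count was 3 without BRM library 2 or NS library 2. The glucuronosyltransferase UGT2B4 rose by 3.32 and its paralog UGT2B7 fell by 1.34, from 28.1, 26.4, 27.6 and 23.1 CPM to 10.6, 11.6 and 8.85 CPM, and division of reads between such paralogs is uncertain. Of 23 gluconeogenesis and glycogen genes tested 4 were higher and 2 lower (26.1%), with a median of 0.14. Those higher were 2 without NS library 4 or BRM library 2, and those lower 0 without NS library 3 or 4 or BRM library 1 or with only the 7 libraries in the model, and 1 without BRM library 2 or 3. PYGL, the liver glycogen phosphorylase, rose by 1.04, and PCK1, the gluconeogenic enzyme phosphoenolpyruvate carboxykinase, by 3.34, a call lost without NS library 1, 2 or 4 or BRM library 2 or 3 (adjusted p = 0.051 to 0.075). FOXO1, an insulin-regulated factor of gluconeogenic genes, fell by 0.70, a call lost without NS library 3 or 4, BRM library 1 or 3 or a low-count filter, with only the 7 libraries in the model and with only libraries 1 and 2 (adjusted p = 0.053 to 0.12).

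**Figure D4:**
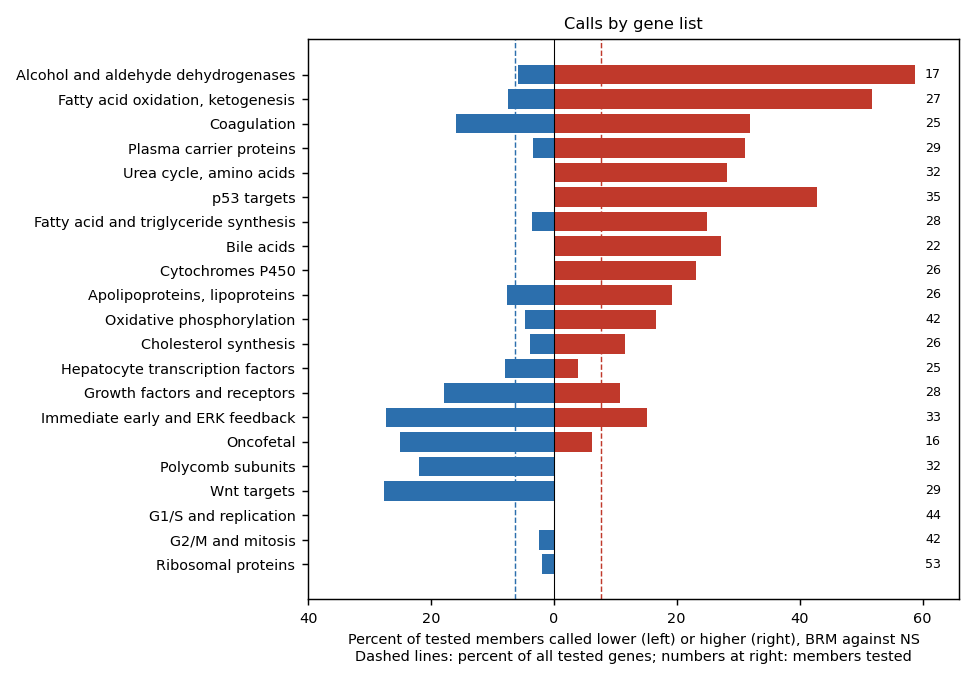
Percent of the tested members of 21 gene lists called higher (red, right) or lower (blue, left) in BRM than in NS, with the number of members tested at the right edge. Dashed lines mark the percent of all 14621 tested genes called higher (7.66%) and lower (6.26%); 10 of 17 alcohol and aldehyde dehydrogenase genes and 15 of 35 p53 targets were higher, 8 of 29 Wnt targets were lower, and 0 of 44 G1/S and replication genes were called.

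Among the transcription factors of hepatocytes, HNF4A, the main regulator of hepatocyte identity, held 256, 239, 329.8 and 280.0 CPM in NS and 293, 407 and 456 CPM in BRM libraries, ranges that overlap, and its difference of 0.48 ± 0.29 (SE; adjusted p = 0.32) did not pass the test. CEBPA, a factor of hepatocyte metabolism genes, was higher in every BRM library but missed the threshold in the pooled test (1.62 ± 0.55 SE; adjusted p = 0.065); within each range it was called, at 1.73 and 1.74 (adjusted p = 0.0028 and 0.0074). Of 25 such factors tested 1 was higher and 2 lower (12%, against 13.9% of all genes), and 7 were higher and 5 lower with a term for replicate range. In the pooled test they were NR1H4, the bile acid receptor FXR (1.31 ± 0.39 SE; adjusted p = 0.037), and ONECUT2 and PROX1, factors of early liver development (-1.44 and -0.88; adjusted p = 3.48e-04 and 0.0036). The NR1H4 call was lost without any of NS libraries 1 to 4 and BRM libraries 1 and 2 or a low-count filter (adjusted p = 0.055 to 0.14). The fetal liver genes AFP (1.08 ± 0.44 SE; adjusted p = 0.12) and GPC3 (0.29 ± 0.20 SE; adjusted p = 0.395) did not pass the pooled test, and AFP was called within libraries 1 and 2 (1.70; adjusted p = 2.48e-04) and not within 3 and 4 (0.64; adjusted p = 0.12). Of 16 oncofetal genes tested 4 were lower and 1 higher (31.2%). LIN28B, a fetal RNA-binding protein that blocks let-7 maturation, fell from 85.3, 81.2, 136 and 155 CPM to 56.1, 41.5 and 44.4 CPM (-1.27 ± 0.22 SE; adjusted p = 0.0018), IGF2BP1, an oncofetal mRNA-binding protein, by 0.71, and TSPAN8, a tetraspanin of gastrointestinal tumours, by 4.20 to 0, 0 and 0.184 CPM. The single higher member was lost without BRM library 2, and 2 were higher without NS library 4. The IGF2BP1 call was lost with only the 7 libraries in the model (adjusted p = 0.057).

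Calls among direct targets of p53 were all increases. Of 35 tested 15 were higher and 0 lower by edgeR (42.9%; 20 and 0 at an unadjusted p under 0.05, 17 and 0 by DESeq2), with a median of 0.67. Within the lower range 20 of the 35 were higher, where 15.8% of all genes were. The list median was 0.64 in the lower and 0.62 in the upper range. TP53I3, a quinone oxidoreductase, held 55.2, 57.4, 45.7 and 37.9 CPM in NS and 148, 269 and 183 CPM in BRM libraries (2.03 ± 0.21 SE; adjusted p = 5.24e-05). TRIAP1, an inhibitor of apoptosis, rose from 52.4, 54.3, 51.7 and 50.3 CPM to 117, 189 and 100.005 CPM (1.37 ± 0.19 SE; adjusted p = 4.36e-04). The antiproliferative gene BTG2 and POLH, the polymerase that bypasses ultraviolet lesions, rose by 1.34 and 1.30. CDKN1A, which encodes the cyclin-dependent kinase inhibitor p21, held 186, 180.1, 168 and 183 CPM in NS and 199, 304 and 350.2 CPM in BRM libraries and did not pass (0.67 ± 0.27 SE; adjusted p = 0.11), nor within libraries 1 and 2 (0.46; adjusted p = 0.0798), but was called within 3 and 4 (adjusted p = 0.0058). The count higher was 6 without BRM library 2, 8 without NS library 2 and 9 without NS library 1, 8 with only the 7 libraries in the model and 21 with a term for replicate range.

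Cell cycle genes were hardly called. Of 44 G1/S and replication genes 0 were called by edgeR, 0 by DESeq2 and 3 at an unadjusted p under 0.05 (2 higher, 1 lower), and TYMS, thymidylate synthase, had the smallest p (0.48 ± 0.17 SE; adjusted p = 0.085) and was called within libraries 1 and 2 (0.73; adjusted p = 0.0017). In libraries 1 and 2, 6 of the 44 were higher and 2 lower, where 15.8 and 13.9% of all genes were. The list median was 0.07 in libraries 1 and 2 and -0.12 in libraries 3 and 4. With a term for replicate range 5 were higher and 1 lower. Of 42 G2/M genes 1 was lower, ECT2, an exchange factor of cytokinesis (-0.82 ± 0.25 SE; adjusted p = 0.041), and its call was lost without NS library 3 or 4 or BRM library 2 or 3 (adjusted p = 0.078 to 0.16), without a low-count filter (0.051), with only the 7 libraries in the model (0.14) and with only libraries 1 and 2 (0.25). Without BRM library 1, 7 were lower, and 1 of the G1/S genes was. MKI67 held 249, 174, 273 and 273 CPM in NS and 200.1, 120.2 and 142 CPM in BRM libraries and did not pass (-0.65 ± 0.35 SE; adjusted p = 0.26).

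Immediate early and ERK feedback genes moved in both directions, with 9 lower and 5 higher of 33 tested (42.4%) and a median of -0.75. EGR1, an early growth response transcription factor, held 27.1, 32.8, 19.8 and 41.9 CPM in NS and 3.71, 3.6 and 4.89 CPM in BRM libraries (-2.90 ± 0.33 SE; adjusted p = 1.05e-04). DUSP6, the phosphatase that dephosphorylates ERK and is itself induced by it, fell from 42, 41.8, 69.8 and 105 CPM to 10.2, 10.6 and 10.6 CPM (-2.63 ± 0.34 SE; adjusted p = 2.89e-04). PHLDA1 and FOSL1, a subunit of AP-1, fell by 1.24 and 1.27. The list median was -0.68 in the lower and -0.70 in the upper range. The count lower was 6 without BRM library 1 or 2 or NS library 4 and 16 with a term for replicate range, and the count higher was 3 without BRM library 2, BRM library 3 or NS library 3.

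In the growth factor list 5 genes were lower and 3 higher of 28 tested (28.6%). The EGFR ligand genes AREG and TGFA fell, AREG from 17.1, 18.4, 7.84 and 12.5 CPM to 1.93, 1.75 and 1.8 CPM (-2.93 ± 0.34 SE; adjusted p = 1.19e-04) and TGFA from 30.9, 30.3, 32.7 and 35.5 CPM to 10.3, 15.9 and 12.3 CPM (-1.33 ± 0.20 SE; adjusted p = 6.94e-04). Their receptor gene EGFR rose from 51.5, 45.6, 32.5 and 30.3 CPM to 109, 178 and 117 CPM (1.75 ± 0.29 SE; adjusted p = 0.0013), and INSR, the insulin receptor, by 1.01. Without BRM library 2 the counts were 2 lower and 2 higher.

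Of 29 Wnt target genes tested 8 were lower and 0 higher by edgeR (27.6%; 10 and 4 at an unadjusted p under 0.05, 9 and 3 by DESeq2), with a median of -0.36, -0.42 in the lower and -0.31 in the upper range. DKK1, a secreted Wnt antagonist, fell from 41.3, 39.8, 109.8 and 103 CPM to 11.9, 13.2 and 24.9 CPM (-2.13 ± 0.42 SE; adjusted p = 0.0039). LGR5, an R-spondin receptor and stem cell marker, held 48.8, 50.9, 71.6 and 83.6 CPM in NS and 36.9, 20.7 and 33.5 CPM in BRM libraries (-1.07 ± 0.22 SE; adjusted p = 0.0058), TNFRSF19 fell by 0.97, and ODAM is among the largest decreases given above. AXIN2, a feedback inhibitor widely used as a Wnt readout, held 116, 103, 98.4 and 106 CPM in NS and 80.4, 93.3 and 90.6 CPM in BRM libraries and did not pass (-0.27 ± 0.17 SE; adjusted p = 0.35). The count lower was 5 without BRM library 1 or 2, and 2 genes were higher without BRM library 1. With only the 7 libraries in the model 4 were lower and LGR5 did not pass (adjusted p = 0.05995).

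Among 32 genes of Polycomb subunits, which silence developmental genes by histone modification, 7 were lower and 0 higher by edgeR (21.9%; 9 and 2 at an unadjusted p under 0.05, 8 and 0 by DESeq2). PHC1, a subunit of the PRC1 complex, fell from 19.2, 17.9, 24 and 26.5 CPM to 5.0, 4.2 and 7.75 CPM (-1.95 ± 0.22 SE; adjusted p = 1.06e-04), and RBBP4, a histone-binding subunit shared with other complexes, from 209, 191, 191 and 196 CPM to 115, 107 and 101 CPM (-0.87 ± 0.13 SE; adjusted p = 5.30e-04). The count was 3 without BRM library 2 or with only the 7 libraries in the model and 4 without NS library 4, and the list median was -0.12. In the TGF-beta and matrix list 6 of 37 genes were lower and 4 higher (27.0% called against 13.9% of all genes), and 7 differed between the ranges (against 2.26% of all genes), whose medians were -0.50 and 0.20. TGFBR2, the type II TGF-beta receptor, fell from 186, 180.0, 289 and 378 CPM to 71.8, 79.6 and 92.3 CPM (-1.67 ± 0.26 SE; adjusted p = 9.25e-04), while ACTA2, smooth muscle actin, rose from 46.3, 57.7, 42.1 and 30 CPM to 109.8, 118 and 188 CPM (1.66 ± 0.24 SE; adjusted p = 5.71e-04). The counts were 3 lower and 2 higher without BRM library 2, and 3 lower without BRM library 1.

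BRM depletion was also measured on top of BRG1 depletion, as the double knockdown against the BRG1 knockdown, which shares no library with BRM against NS. There 1582 genes (10.8%) were called, 600 higher (4.10%) and 982 lower (6.72%). SMARCA2 fell by 3.32 ± 0.26 (SE). Of the 1120 genes higher in BRM than in NS, 285 were also higher in the double than in the BRG1 knockdown, 16 were lower, and 938 had the same sign. Of the 915 lower genes, 426 were also lower, 3 were higher, and 851 had the same sign. Over all 14621 tested genes, 7469 were above 0 in the double against the BRG1 knockdown. Across the tested genes the 2 effects correlated with Pearson's r of 0.50 and Spearman's coefficient of 0.51, given as a description across genes that share libraries within each comparison. GSTA1 (2.92), CPT1A (1.41), APOE (1.40), PRF1 (-4.46), KCNJ10 (-3.28), AREG (-2.31), ONECUT2 (-1.52) and TTR (-1.57) were called on the BRG1-depleted background too, in the direction they took against NS.

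The size of the BRM effect differed with the presence of BRG1 for 73 genes (0.499%), of which 54 were among the 2035 calls. The interaction, the double minus BRG1 effect less the BRM minus NS effect, contains the difference that defines those calls. This overlap, and interactions opposite in sign to the effect against NS, are therefore partly set by selection. Among the 73 genes were several metabolic genes that rose against NS. FETUB rose by 2.94 against NS and differed by -0.34 in the double against the BRG1 knockdown (interaction -3.28 ± 0.49 SE; adjusted p = 0.0054). CYP19A1 rose by 2.77 and differed by -0.03 (interaction -2.80 ± 0.40 SE; adjusted p = 0.0045), and the bile acid exporter subunit SLC51A by 2.27 and -0.45 (-2.72 ± 0.44 SE; adjusted p = 0.012). ECI2 and LPIN1 rose by 1.18 and 1.28 and differed by 0.01 and -0.14. ACSL1 changed direction, from 1.14 with BRG1 present to -1.02 with BRG1 depleted (interaction -2.16 ± 0.24 SE; adjusted p = 7.29e-04), as did EGFR, from 1.75 to -1.58 (interaction -3.33 ± 0.40 SE; adjusted p = 0.0017). EGR1 and DUSP6, at -2.90 and -2.63 against NS, differed by -0.51 and -0.19 on the BRG1-depleted background. PLA2G2A fell on both, by 5.95 and 2.68 (interaction 3.28 ± 0.60 SE; adjusted p = 0.024).

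**Figure D5:**
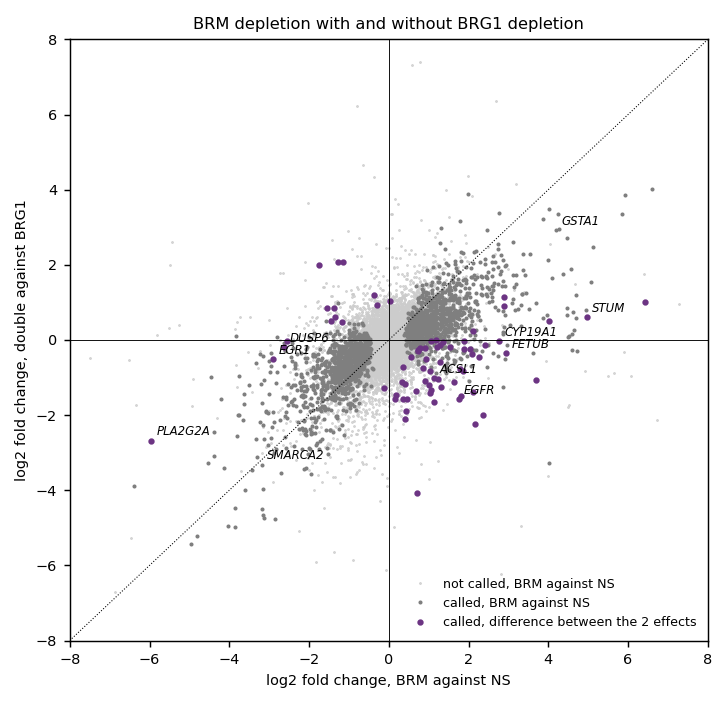
log2 fold change of the double against the BRG1 knockdown (y axis) against that of BRM against NS (x axis) for each tested gene; dark grey points were called for BRM against NS and purple points for the difference between the 2 effects. The dotted line marks equal effects and 2 genes lie outside the axes; SMARCA2 lies near the line (-3.18 and -3.32), and FETUB, CYP19A1 and EGFR, higher against NS, lie at or below 0 on the y axis.

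The BRM and BRG1 knockdowns themselves differed at 4957 genes (33.9%), 1534 of them among the 2035 calls. That test uses the BRM libraries that also define those calls, so the overlap is partly set by selection. The 2 effects against NS share the NS libraries and are set side by side here. GSTA1 was 4.20 with BRM and -3.88 with BRG1 depleted (BRM against BRG1 8.09 ± 0.54 SE; adjusted p = 3.41e-07). ALDH1A1 was 1.42 and -2.32, and ITIH3 1.92 and -2.57 (BRM against BRG1, adjusted p = 3.41e-07 and 1.73e-06). AREG and FOSL1 were -2.93 and -1.27 with BRM and 2.23 and 2.62 with BRG1 depleted (adjusted p = 4.84e-07 and 2.45e-07). TTR, SPP1 and ODAM were lower in both, by 1.55 and 1.41, 3.76 and 3.02, and 3.50 and 3.12, and BRM against BRG1 did not pass for them (adjusted p = 0.66, 0.22 and 0.53), with differences of -0.14 ± 0.22, -0.74 ± 0.44 and -0.38 ± 0.42 (SE).

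Some called genes were neighbours. Ordered by GENCODE coordinates (GRCh38), 28 runs of at least 3 adjacent tested genes were called in the same direction, 15 higher and 13 lower. Of all tested genes 7.66% were called higher and 6.26% lower, and how many runs these shares alone would give was not tested. The cystatin-family genes FETUB, HRG and KNG1 on chromosome 3 (186635969 to 186744410) rose by 2.94, 1.49 and 3.08. The alcohol dehydrogenases ADH5, ADH4 and ADH6 on chromosome 4 (99070978 to 99219537) rose by 0.87, 3.69 and 1.61. MCF2L, a guanine nucleotide exchange factor gene, and the coagulation factors F7 and F10 on chromosome 13 (112894378 to 113149529) rose by 1.02, 1.81 and 1.79. On chromosome 19 (15468645 to 15898120) PGLYRP2 and the paralogs CYP4F3, CYP4F12 and CYP4F2 rose by 5.07, 2.75, 2.31 and 1.89. Among the runs that fell, PALD1, PRF1 and ADAMTS14 on chromosome 10 (70478821 to 70762441) fell by 2.60, 3.86 and 4.13, and the volume-regulated anion channel subunits LRRC8B, LRRC8C and LRRC8D on chromosome 1 (89524836 to 89936611) by 2.21, 1.85 and 0.81. These 6 runs were picked for description after their values were seen. Without BRM library 2 the calls of HRG, ADH6, F7 and ADAMTS14 were lost (adjusted p = 0.084, 0.13, 0.11 and 0.059). The HRG call was also lost without NS library 1, 2 or 4 or BRM library 1 or 3, the ADH6 call without any single NS library or BRM library 3, and the F7 call without NS library 1, 2 or 3 (adjusted p = 0.052 to 0.11). Without a low-count filter HRG, ADH6 and F7 did not pass (adjusted p = 0.068, 0.065 and 0.052), and with only the 7 libraries in the model HRG did not (0.059).

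In the authors' deposited table of this comparison 2775 genes have an adjusted p under 0.05, 1427 higher and 1348 lower. It calls 2029 of the 2035 genes, all with the same sign. SMARCA2 stands there at a log2 fold change of -3.22 and GSTA1 at 4.19, in the authors' deposited table.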

How the data were processed

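RNA of 15 HepG2 libraries was measured by mRNA sequencing. The authors deposited estimated counts per gene symbol for all libraries, which are whole numbers and not scaled between libraries; per the submitters' processing notes they involved kallisto, DESeq2 and GRCh38, and no source used here gives versions, order, annotation or strand. The authors' deposited table of the BRM comparison holds, per the file headers, a mean scaled signal per gene, a log2 fold change with its error, a Wald score and p-values with adjusted p-values; only the log2 fold changes and adjusted p-values were used. Groups were taken from the labels.

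Counts of 35012 symbols were analysed with edgeR 4.0.16 in R 4.3.3: TMM scaling, filterByExpr on group, which left 14621 genes, and a robust quasi-likelihood F test on group means over all 15 libraries (4 NS, 4 BRG1, 3 BRM, 4 double), with Benjamini-Hochberg adjustment and a threshold of 0.05. A gene is called where its adjusted p is under that threshold. Effects within libraries 1 and 2, within 3 and 4 and their difference came from a model of group by replicate range, and the interaction is the double minus BRG1 effect less the BRM minus NS effect. The scripts were tested on simulated data. Coordinates are from GENCODE 29, in which 33629 symbols were found, and promoter windows from RefSeq, for 156 of the named genes.

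Named genes were SMARCA2 and SMARCA4; of the called genes averaging 2 CPM or more, the 14 that rose and the 14 that fell most, given groups that do not overlap and the same sign in both ranges (a pool of 1746); up to 4 members of each of 47 gene lists by smallest adjusted p; the 4 genes in each direction that differed most between ranges with an average of 5 CPM or more, not all of which are described; well-known members such as HNF4A whatever their values; and members of runs of called neighbours. Some genes the rule names are not reported here. Of 1296 list entries, 1284 had a current symbol, 9 an older one and 3 no match. The comparison, genes and lists were chosen with earlier results of these data known, so no list is independent evidence.

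Total counts per library set the precision of low genes. Replicate numbers were not taken to pair the libraries. Deviations from the group means correlated at 0.42, 0.07 and 0.53 between BRM libraries 1, 2 and 3 and the NS library of the same number. BRM library 1 correlated at 0.43 with NS library 2 and at -0.45 with NS library 3. BRM library 3 correlated at 0.44 with NS library 4 and at -0.51 with NS library 1. Deviations of BRM libraries 1 and 3 thus followed the replicate range, for which the main model has no term. Alternatives covered scaling, tests (DESeq2 1.42.0, limma 3.58.1 voom), filters, the samples in the model, a replicate block, a term for replicate range and leaving out each library.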

Additional observations from a re-analysis of the deposited data

Results flagged for a closer look

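In 6 genes 1 of the 4 NS libraries stood apart from the other 3: NS library 2 for SMARCA2 (33.2 CPM against 41.1 to 41.4 in the others) and SMARCA4 (297 CPM against 310 to 312), and NS library 4 for KLHL13 (0.837 CPM), INSIG2 (63.3 CPM) and DGAT2 (61.6 CPM), and NS library 3 for CD14 (2.86 CPM). Of the 143 genes so examined, chance alone flags about 1 in 20.

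The effect of BRM depletion differed with BRG1 depleted from that with BRG1 present for 13 genes named in the text. The genes were named largely for their difference of BRM against NS, which the interaction contains. An interaction of opposite sign is therefore partly set by that selection. On the log2 scale the interaction was 3.28 (adjusted p = 0.024) for PLA2G2A, 2.39 (adjusted p = 0.016) for EGR1 and 2.44 (adjusted p = 0.022) for DUSP6. It was negative for STUM, -4.37 (adjusted p = 0.0057), and ADAMTS17, -3.52 (adjusted p = 0.016), both higher in BRM than in NS and at 0.60 and 0.50 in the double against the BRG1 knockdown. It was also negative for EGFR, -3.33 (adjusted p = 0.0017), FETUB, -3.28 (adjusted p = 0.0054), CYP19A1, -2.80 (adjusted p = 0.0045), and SLC51A, -2.72 (adjusted p = 0.012). The lipid genes ACSL1, -2.16 (adjusted p = 7.29e-04), SLC25A20, -1.76 (adjusted p = 0.049), LPIN1, -1.43 (adjusted p = 0.022), and ECI2, -1.16 (adjusted p = 0.049), were negative too.

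The effect of BRM depletion differed between libraries 3 and 4 and libraries 1 and 2 for 11 genes named in the text. The difference was 5.54 (adjusted p = 0.0102) for COMP, 4.56 (adjusted p = 0.011) for FADS6, 2.46 (adjusted p = 0.0102) for COL1A1, 2.33 (adjusted p = 0.033) for SERPING1 and 1.96 (adjusted p = 0.027) for MMP2. It was 1.88 (adjusted p = 0.0297) for ANGPTL4, 1.76 (adjusted p = 0.043) for SPP1 and 1.70 (adjusted p = 0.0297) for KRT19, and 2.03 (adjusted p = 0.0114) for EFEMP2. It was negative for TGFBR3, -1.28 (adjusted p = 0.027), and MSMO1, -1.12 (adjusted p = 0.022). The upper range has 1 BRM library.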

How the results depend on the processing

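The count of genes called depended on the libraries and terms in the model. Against 2035 called (1120 higher, 915 lower), it was 1002 (529, 473) with only the NS and BRM libraries, 4684 (2679, 2005) with a term for replicate range, 4153 (2324, 1829) with a replicate block, 570 (319, 251) in a test against a 1.5-fold change and 4064 (2150, 1914) with only libraries numbered 1 and 2, an alternative added after seeing the data. Leaving out 1 library gave 959 to 2063 called, 456 to 1173 higher and 503 to 926 lower, lowest without BRM replicate 2. Other scalings, DESeq2, voom and both filters gave 1518 to 2821. With the replicate block the interaction count was 633 against 73, and without a low-count filter the count differing between ranges was 1055 against 330; the cause was not tested. Of 128 called genes of the text 104 stayed called in each refit of single genes, which leaves out the test against a 1.5-fold change, 24 lost the call in at least 1 and none reversed. SMARCA4, which was not called, ranged from -0.0868 (without BRM replicate 3) to 0.304 with 1 library left out and was -0.0335 with only libraries 1 and 2. Depth limits genes near 0 CPM in NS, whose fold changes rest on a few counts.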

Other observations

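Further gene groups of the comparison are given here as values. Of 42 nuclear genes of oxidative phosphorylation 7 were higher and 2 lower (21.4% called against 13.9% of all genes). SDHB, the iron-sulfur subunit of succinate dehydrogenase, rose from 61.5, 58, 55.6 and 62.9 CPM to 123, 147 and 94.5 CPM (1.03 ± 0.17 SE; adjusted p = 0.0011), and NDUFB3, an accessory subunit of complex I, fell from 40.9, 41.7, 29.8 and 32.1 CPM to 13.8, 10.5 and 10.5 CPM (-1.65 ± 0.21 SE; adjusted p = 2.64e-04). The count higher was 1 without BRM library 2, 2 without NS library 1, 2 or 4 and 4 without NS library 3, and the count lower was 1 without NS library 1 or BRM library 3. With a term for replicate range 18 were higher and 3 lower. Of 53 ribosomal protein genes 1 was called, RPL14, which fell from 703, 725, 547 and 541 CPM to 272, 216 and 285 CPM (-1.29 ± 0.20 SE; adjusted p = 9.83e-04). The tight junction genes CGN, which encodes cingulin, and F11R, which encodes an adhesion molecule of the junction, rose from 2.52, 1.28, 3.14 and 3.02 CPM to 20.7, 18.4 and 17.9 CPM and from 136, 125, 144 and 144 CPM to 222, 416 and 306 CPM. In the epithelial junction list 5 of 36 genes were higher and 2 lower (19.4%), and 14 and 5 with a term for replicate range. Without BRM library 1, 11 were higher, and 1 was lower without any single BRM library or NS library 3 or 4.

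Stress genes moved in both directions. Of 21 heat shock genes 5 were higher and 1 lower (28.6%): the small heat shock protein gene HSPB1 held 94.7, 101, 92.9 and 93.5 CPM in NS and 142, 265 and 411 CPM in BRM libraries (1.51 ± 0.30 SE; adjusted p = 0.0043), HSPA1A, one of a near-identical gene pair, rose by 0.97, and HSPH1, an exchange factor of HSP70, fell by 1.09. The count higher was 3 without BRM library 2 or NS library 2, and 2 were lower without BRM library 3. HMOX1, the heme oxygenase gene, rose from 111, 108, 84.4 and 70 CPM to 199, 336 and 354 CPM (1.67 ± 0.30 SE; adjusted p = 0.0021), while SLC7A11, the cystine importer gene, fell from 32, 34.4, 51.4 and 81.5 CPM to 17.4, 11.4 and 14.6 CPM (-1.79 ± 0.38 SE; adjusted p = 0.0064). In the list of YAP and Hippo genes 2 of 26 were higher and 3 lower (19.2%), with a median of 0.11. The Hippo pathway coactivator gene YAP1 fell from 143, 127, 147 and 179 CPM to 66.8, 64.7 and 66.3 CPM (-1.18 ± 0.18 SE; adjusted p = 8.18e-04), and CTGF, a matricellular YAP target, from 209, 215, 152 and 247 CPM to 51.5, 61.5 and 47.6 CPM (-1.94 ± 0.23 SE; adjusted p = 1.28e-04). AJUBA, a LIM protein that binds LATS kinases, and LATS2, a kinase that inhibits YAP, rose by 1.17 and 0.95 (adjusted p = 0.0016 and 0.0082), the latter not without BRM library 2 (adjusted p = 0.085), where 1 member of the list was higher. LYZ, which made up most of the summed blood and macrophage markers, held 444, 469, 1497 and 1654 CPM in NS and 76.6, 89.7 and 171 CPM in BRM libraries (-3.18 ± 0.52 SE; adjusted p = 0.0011). In that list 1 of 6 genes tested was lower and 1 higher, with a median of 0.70: CD68, a macrophage marker, rose by 0.91 (adjusted p = 0.0302), a call lost without NS library 1, 2 or 3, BRM library 2 or 3 or a low-count filter (adjusted p = 0.054 to 0.17), and CD14 and HBA1 were at 1.91 and 1.67 and did not pass (adjusted p = 0.13 and 0.056). Of 17 other remodelling ATPase genes tested 1 was higher and 1 lower (11.8% called against 13.9% of all genes). The higher gene was CHD3, of the NuRD complex, which rose from 11.9, 10.3, 7.29 and 5.58 CPM to 28.3, 28 and 18.8 CPM (1.51 ± 0.29 SE, adjusted p = 0.0032). The count lower was 4 without BRM library 1 and 0 without BRM library 2 or 3 or NS library 1, 3 or 4.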
